A study of Mus musculus with 12 samples.

Results

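Gene expression was compared between mouse lung taken 11 days after irradiation and lung that received no irradiation. The comparison used 6 of the 12 libraries of the series, 3 labelled IR_11d and 3 labelled NoIR, chosen by those labels alone. The remaining libraries, 3 taken 8 days (IR_8d) and 3 taken 14 days (IR_14d) after irradiation, served to place the 11-day level in time. The material was lung tissue, and per the series description only irradiated areas of the lung were taken from irradiated animals. Dose, radiation field, strain, sex, age and the region sampled in the controls are not known from the sources used here, and no genetic alteration or drug is named for any group. The labels number the replicates without saying that they were separate animals, so p-values cover no more than the spread of these samples, and that spread may be technical. Every gene symbol was a member, with counts of lines sharing a symbol added together. Of 23238 symbols, 16484 passed the filter on low counts and were tested, and 6754 did not.

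Ionising radiation breaks DNA, and cells answer through the transcription factor p53, which induces inhibitors of the cell cycle and inducers of cell death. Damaged and dying cells also release nucleic acids and proteins that are read by pattern recognition receptors, and the kinases and transcription factors downstream of them (NF-kB, IRF and STAT proteins) induce cytokines, chemokines, acute-phase proteins and interferon-stimulated genes. In lung the capillary endothelium and the thin alveolar type 1 cells form the gas exchange surface, type 2 cells make surfactant, and monocytes drawn from blood can become macrophages. Cell division is read in bulk RNA from genes expressed mainly in cycling cells, and not every gene of the cell cycle lists below is of this kind.

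The libraries held 19624554 to 27765751 counts, and 18204 to 19288 genes were detected in each. The ribosomal RNA precursor Rn45s took 1.71% to 2.91% of counts in unirradiated lung and 3.48% to 6.27% at 11 d, and haemoglobin genes took 0.917% to 1.72% and 0.653% to 1.25%. On the first principal component, which held 54.6% of the variance, 11 d replicate 1 had a score of 48.2, within the range of the 14 d libraries (32.34 to 49.74), while 11 d replicates 2 and 3 had scores of 20.88 and 23.16 and the unirradiated libraries between -79.46 and -70.77. List counts that moved by over 1.5 times without 11 d replicate 1 are therefore given both ways. Levels are CPM, counts scaled to a common library size, changes are log2 differences between 11 d and unirradiated lung from an edgeR quasi-likelihood fit of all 12 libraries with Benjamini-Hochberg adjustment over all 16484 genes, and a gene was called, that is, it rose or fell, at an adjusted p below 0.05. In bulk tissue fewer cells of a type and less RNA per cell cannot be told apart, nor can more cells and more RNA per cell.

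At 11 d a large part of the transcriptome differed from unirradiated lung. The edgeR quasi-likelihood test called 6132 genes (37.2% of those tested), of which 3194 rose (19.4%) and 2938 fell (17.8%). Rises of at least 2-fold numbered 1588 (9.63%) and falls of at least 2-fold 1000 (6.07%). In 4648 genes (28.2%) all 3 libraries at 11 d lay above all 3 unirradiated ones, and in 4399 (26.7%) all lay below. The median log2 change of all tested genes was -0.0103. Without 11 d replicate 1 the test called 2445 rises and 1981 falls, and with library size as the sole scaling there were 3010 rises and 3139 falls, so the majority of calls turned from rises to falls.

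Direct tests between 11 d and the times 3 days earlier and 3 days later called far fewer genes, and those above both times were genes of inflammation. Against 8 d, 288 genes were higher at 11 d (1.75%) and 65 lower (0.394%). Against 14 d, 162 were higher (0.983%) and 134 lower (0.813%). Both contrasts share the 11 d libraries, and both counts depended on single libraries. Without 8 d replicate 3 the test called 2 genes above and 0 below 8 d, without 8 d replicate 1 177 and 30, and without 11 d replicate 1 53 and 1. The count below 8 d was 31 without 11 d replicate 2 and 190 without 8 d replicate 2. Without 14 d replicate 1 it called 6 above and 7 below 14 d, without 14 d replicate 2 54 and 48, without 11 d replicate 2 15 and 9, without 11 d replicate 3 38 and 14, and without 11 d replicate 1 321 and 360. At 11 d, 9 genes were called above both 8 d and 14 d (0.0546% of those tested) and 0 below both, and at an unadjusted p below 0.05 the counts were 128 and 128. DESeq2 called 23 and 7, and limma-voom 11 and 1. The 9 genes were Saa3, Irg1, Clec4e, Ccl3, Tnf, Il1rn, Lcn2, Fga and Fgg. Their number moved with single libraries, from 0 without 8 d replicate 3 and 2 without 14 d replicate 1 to 15 without 8 d replicate 2, and it was 3 without 11 d replicate 1, 3 without 11 d replicate 2, 4 without 14 d replicate 2 and 5 without 8 d replicate 1. Of the 52 calls against 8 d among the genes named here, that of Gpnmb alone was kept in each of the 6 fits without 1 library, and all others were lost without 8 d replicate 3. Of the 43 calls against 14 d, those of Apoe, Clec4e and Irg1 were kept in each fit, and all others were lost without 14 d replicate 1. Of the 3194 genes that rose against unirradiated lung, 1459 (45.7%) had their highest group mean at 11 d (8.85% of all tested), 1380 (43.2%) at 14 d and 355 (11.1%) at 8 d.

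**Figure D1:**
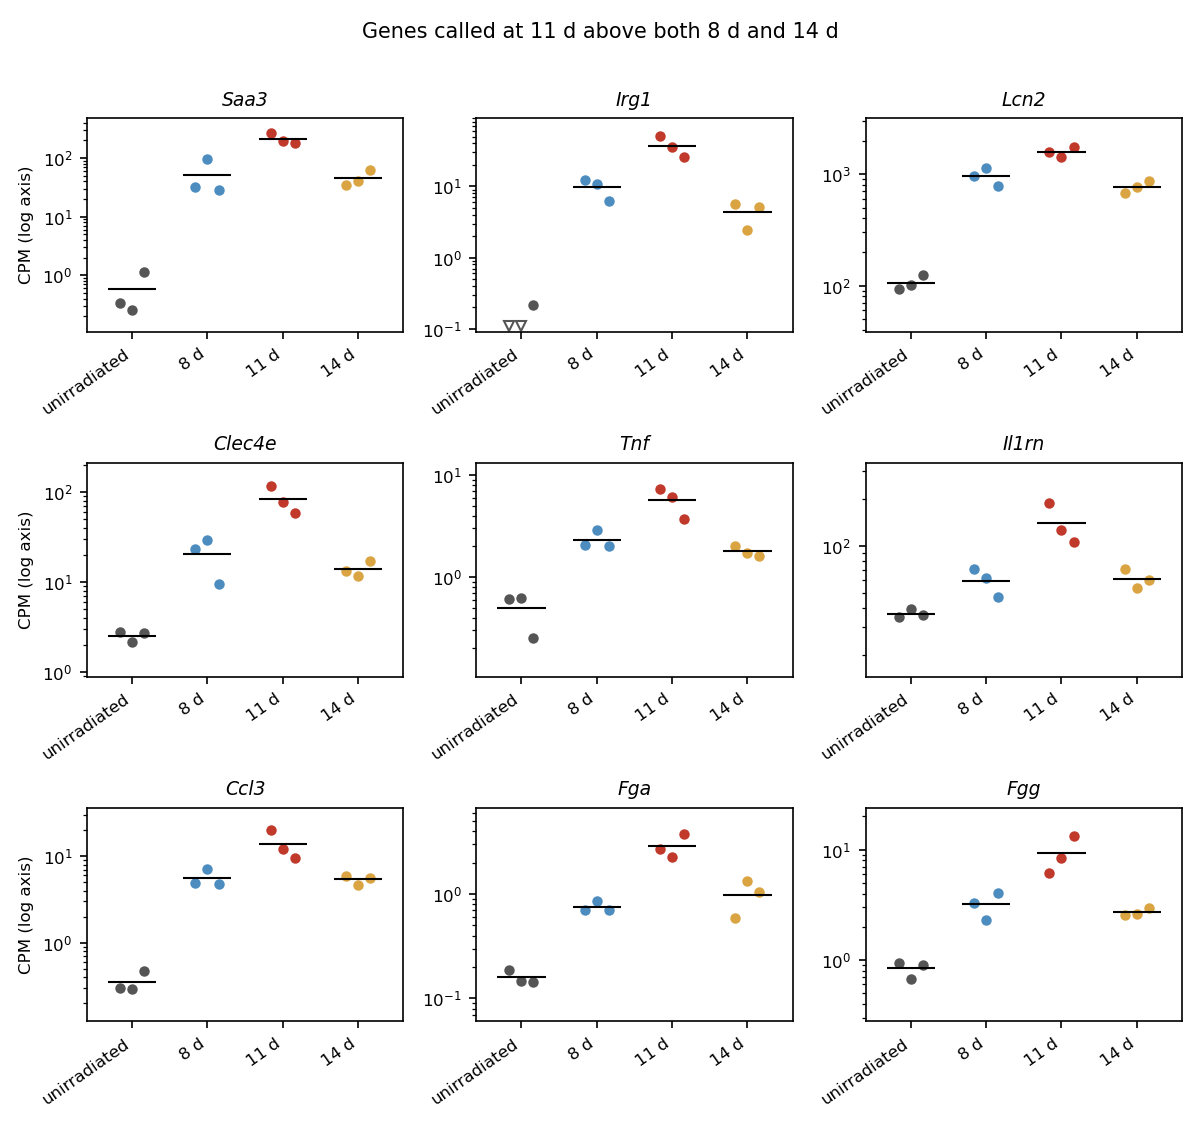
CPM (log axis) of the 9 genes called at 11 d above both 8 d and 14 d, 1 panel per gene; each point is 1 of 12 libraries, placed by group, the short line is the group mean, and open triangles at the lower edge mark libraries with no count. Saa3 runs from 0.258 to 1.12 CPM in unirradiated lung and from 179 to 265 CPM at 11 d, and every panel has its highest mean at 11 d.

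Saa3, an acute-phase serum amyloid protein made outside the liver by macrophages and epithelium, stood at 0.339, 0.258 and 1.12 CPM in unirradiated lung and at 265, 198 and 179 CPM at 11 d. Its levels were 32.4, 95 and 28.9 CPM at 8 d and 34.9, 41 and 62.4 CPM at 14 d, so that every 11 d library lay above every other library. Its change was a log2 change of 8.52 (SE 0.60, edgeR quasi-likelihood adjusted p = 4.5e-07), and it exceeded 8 d by 2.04 (SE 0.41) and 14 d by 2.21 (SE 0.42) on the log2 scale. Irg1, which encodes the macrophage enzyme that makes itaconate, held 0, 0 and 0.217 CPM (6 counts in all) in unirradiated lung against 50.1, 35.4 and 26 CPM at 11 d, with 12.2, 10.7 and 6.17 CPM at 8 d and 5.58, 2.45 and 5.17 CPM at 14 d. Its log2 change of 8.88 (SE 0.62, edgeR quasi-likelihood adjusted p = 4.3e-07) rests on those 6 counts, and its excess over 8 d and 14 d was 1.94 (SE 0.37) and 3.09 (SE 0.39). Lcn2, a siderophore-binding protein of neutrophils and stressed epithelium, stood at 92.3, 101 and 124 CPM in unirradiated lung and at 1586, 1427 and 1759 CPM at 11 d. Its levels of 969, 1135 and 786 CPM at 8 d and 676, 758 and 871 CPM at 14 d lay below all 11 d libraries. In GRCm38 coordinates Saa3 lies at chr7:46711998-46715700, Lcn2 at chr2:32384633-32388252 and Clec4e at chr6:123281789-123289870, all on the minus strand and all protein-coding. The change of Lcn2 was a log2 change of 3.91 (SE 0.19, edgeR quasi-likelihood adjusted p = 5.3e-08).

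The other members of this group of 9 were a receptor, cytokines and clotting proteins. Clec4e, also called Mincle, a C-type lectin receptor for mycobacterial glycolipid and for a protein released by dead cells, stood at 2.79, 2.14 and 2.71 CPM in unirradiated lung and 116, 76.9 and 58.4 CPM at 11 d, a log2 change of 5.04 (SE 0.39, edgeR quasi-likelihood adjusted p = 8.4e-07). It exceeded 8 d by 2.03 (SE 0.33) and 14 d by 2.58 (SE 0.34). Tnf, the tumour necrosis factor gene, was a low transcript at 0.603, 0.627 and 0.253 CPM in unirradiated lung, 2.06, 2.93 and 2 CPM at 8 d, 7.31, 6.09 and 3.68 CPM at 11 d and 2.02, 1.74 and 1.63 CPM at 14 d. Its lowest 11 d library lay above its highest library of any other group. Il1rn, the secreted antagonist of the interleukin-1 receptor, stood at 34.7, 39.1 and 36 CPM in unirradiated lung and 188, 126 and 105 CPM at 11 d, a log2 change of 1.93 (SE 0.21, edgeR quasi-likelihood adjusted p = 8.9e-06). Fga and Fgg encode chains of fibrinogen, which liver makes for plasma and epithelium can make locally. Fga rose from 0.144 to 0.188 CPM to 2.25 to 3.73 CPM and Fgg from 0.664 to 0.942 CPM to 6.17 to 13.3 CPM, in both genes without overlap of the libraries. The hepatocyte gene Alb lay between 1.14 and 1.84 CPM in unirradiated lung and between 1.41 and 2.54 CPM at 11 d with overlapping libraries, and Serpina1a, another hepatocyte gene, fell by 0.82 (SE 0.24), a call that was lost without unirradiated replicate 1, 11 d replicate 1 or 11 d replicate 3 (-0.78 to -0.66). Another hepatocyte gene, Ahsg, was higher in every library, 0.253 to 0.443 CPM against 0.562 to 0.933 CPM, with a change of 1.13 (SE 0.48) that was not called (edgeR quasi-likelihood adjusted p = 0.081). All 3 were looked up after the values of Fga and Fgg were seen.

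Sensors of microbes and damage rose as a list. Of 32 tested genes 26 rose against a background of 19.4% and 3 fell against 17.8%, with a median log2 change of 1.31 where all tested genes had -0.0103. Without 11 d replicate 1, 23 rose. Clec4d, the partner receptor of Clec4e, rose from 1.43 to 2.8 CPM to 32.2 to 66.4 CPM. Zbp1, a sensor of left-handed nucleic acid that can start necroptosis, stood at 8.55, 7.86 and 13.8 CPM in unirradiated lung and 161, 120.5 and 95.5 CPM at 11 d, a log2 change of 3.64 (SE 0.26, edgeR quasi-likelihood adjusted p = 4.5e-07). Tlr2, the Toll-like receptor for bacterial lipoproteins, rose by 2.02 (SE 0.21), and Tmem173, which encodes the STING adaptor of cytosolic DNA sensing, by 2.01 (SE 0.18). Its upstream enzyme Mb21d1 (cGAS) rose by 1.07 (SE 0.21). The RNA sensors Ddx58 and Ifih1 rose by 0.78 and 0.81, and the endosomal RNA receptor Tlr3 overlapped, 18.6 to 24 CPM against 17.2 to 20.1 CPM. The 3 that fell, each with separate libraries, were Fpr1, the receptor for formylated peptides, by 1.04 (SE 0.20), Tlr5, the flagellin receptor, by 0.68 (SE 0.25), and Nod1, which reads peptidoglycan fragments, by 0.54 (SE 0.13). The call of Tlr5 was lost without any 1 of the 6 libraries (-0.77 to -0.56). Against 8 d 10 of the 32 were higher at 11 d, among them Tlr2, Tlr7, Clec7a and Cd14, where the background was 1.75%. Against 14 d 1 was higher (Clec4e) and 1 lower, Tlr8, with a difference of -1.59 (SE 0.29).

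All 12 inflammasome and lytic death genes rose, and all 12 kept the 3 and 3 libraries apart, where 28.2% of tested genes did so upwards. Pycard, the adaptor that joins sensors to caspase-1, stood at 6.29, 5.9 and 10.1 CPM in unirradiated lung and 53.3, 28.9 and 31.1 CPM at 11 d, a log2 change of 2.35 (SE 0.29, edgeR quasi-likelihood adjusted p = 2.6e-05). Casp4, the mouse caspase that binds bacterial lipopolysaccharide, rose by 1.77 (SE 0.21), Ninj1, whose product ruptures the plasma membrane of dying cells, by 1.64 (SE 0.20), and Mlkl, the effector of necroptosis, by 1.59 (SE 0.20). The pore-forming Gsdmd and the kinase Ripk1 had the smallest rises, 0.56 and 0.54. Naip2, 1.68 (SE 0.20), belongs with Naip5 to a family of near-identical genes, so its count is uncertain. The time of the highest mean was 14 d for 8 of the 12 and 11 d for 4. Among the 3194 genes that rose against unirradiated lung it was 14 d for 43.2% and 11 d for 45.7%.

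Of 26 tested interleukins, TNF family members and inflammatory growth factors 17 rose (65.4%) and 2 fell (7.69%), with a median of 1.72. The shares of all tested genes were 19.4% and 17.8%. Another 9 listed genes, among them Il10, Il4, Il5, Il13 and Il17a, did not pass the filter. Il6 was nearly absent from unirradiated lung, with 0, 0.148 and 0 CPM (4 counts in all), and reached 1.48, 2.58 and 1.76 CPM at 11 d, a log2 change of 5.16 (SE 0.66, edgeR quasi-likelihood adjusted p = 3.9e-05). Its mean was higher at 8 d (2.9, 6.58 and 5.25 CPM) than at 11 d, with a difference of -1.34 (SE 0.40) between the times (edgeR quasi-likelihood adjusted p = 0.1) that was not called. Il12b, the shared p40 subunit of interleukins 12 and 23, rose from 0.527, 0.849 and 0.506 CPM to 16.2, 17.1 and 14.6 CPM, a log2 change of 4.66 (SE 0.31, edgeR quasi-likelihood adjusted p = 3.3e-07), and stood above 8 d by 1.16 (SE 0.25). Il1b stood at 1.66, 1.88 and 8.38 CPM in unirradiated lung, where replicate 3 was several times above the others, and at 23.6, 25.1 and 15.4 CPM at 11 d, still without overlap. The interleukin-6 family genes Osm and Lif rose by 3.44 (SE 0.38) and 2.58 (SE 0.25), and Ifng, the interferon-gamma gene, from 0 to 0.113 CPM to 0.562 to 0.93 CPM.

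Il33, an alarmin of alveolar type 2 cells, stood at 78.8, 75.9 and 104 CPM in unirradiated lung, 185, 197 and 192 CPM at 8 d, 270.1, 279 and 295 CPM at 11 d and 121, 146 and 162 CPM at 14 d and was called above 14 d by 0.98 (SE 0.14). The 11 d libraries lay close together and above all others. The 2 genes that fell were Il18, from 20.7 to 28.8 CPM to 13.5 to 19.6 CPM, and Tnfsf10, which encodes the death ligand TRAIL, from 62.1 to 112 CPM to 42.5 to 47.7 CPM. The call of Il18 was lost without unirradiated replicate 1, unirradiated replicate 2 or 11 d replicate 3 (-0.54 to -0.45). Among the receptors of these cytokines 20 of 33 rose (60.6%) and 2 fell (6.06%), beside 19.4% and 17.8% of all tested genes. Il2ra, the high-affinity interleukin-2 receptor chain of activated T cells, stood at 1.24, 1.36 and 1.34 CPM and then 18.2, 11.5 and 13.8 CPM, a log2 change of 3.46 (SE 0.28, edgeR quasi-likelihood adjusted p = 1.2e-06). Il1r2, the decoy receptor for interleukin-1, rose by 3.18 (SE 0.46), Il2rb by 2.71 (SE 0.18) and Il7r by 2.59 (SE 0.18). Lifr and Il6st, which form the receptor of leukaemia inhibitory factor, both fell, Lifr from 167, 140.0 and 153 CPM to 63.4, 60.7 and 71.3 CPM and Il6st from 291, 286 and 299 CPM to 171, 186 and 198 CPM. The call of Il6st was lost without 11 d replicate 1 (-0.61). The signalling receptors Il1r1 and Tnfrsf1a changed by 0.15 and 0.093 and were not called.

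Chemokine ligands had the largest median among the cytokine, chemokine and receptor lists. Of 35 tested ligands 26 rose (74.3%) and 3 fell (8.57%), with a median log2 change of 2.44. The shares of all tested genes were 19.4% and 17.8%. In 22 of 35 the highest mean was at 11 d, against 20% of all tested genes and 45.7% of those that rose. Ccl2, which attracts monocytes, stood at 0.49, 0.258 and 0.542 CPM in unirradiated lung, 19.8, 35.7 and 18.7 CPM at 8 d, 64.9, 51.7 and 38.5 CPM at 11 d and 13.7, 9.32 and 17.3 CPM at 14 d. Ccl7, which binds the same receptor, stood at 0.0754, 0.332 and 0.434 CPM, 9, 15.4 and 8.59 CPM, 30.1, 23.7 and 16.9 CPM and 4.32, 4 and 8.43 CPM. Both genes had their highest mean at 11 d and were called above 14 d, by 1.95 (SE 0.28) and 2.08 (SE 0.34), and not above 8 d. Ccl3, a ligand of Ccr1, rose from 0.301, 0.295 and 0.47 CPM to 20.2, 12.2 and 9.54 CPM, a log2 change of 5.28 (SE 0.34, edgeR quasi-likelihood adjusted p = 3.0e-07). Cxcl10, a ligand of the chemokine receptor Cxcr3 of T cells, stood at 0.98, 0.775 and 1.88 CPM and then 54.1, 50.7 and 45.8 CPM, a log2 change of 5.36 (SE 0.32, edgeR quasi-likelihood adjusted p = 2.0e-07).

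The ligands of Cxcr2, which draw neutrophils, were low in unirradiated lung. Cxcl1 stood at 0.867, 0.332 and 0.831 CPM and then 5.16, 9.75 and 7.36 CPM, Cxcl2 at 0.151, 0 and 0.217 CPM and then 4.1, 2.91 and 1.5 CPM, and Cxcl5 at 0.678, 0.184 and 0.687 CPM and then 5.11, 4.73 and 4.77 CPM. All 3 rose, by 3.44, 4.48 and 3.23, and no unirradiated library reached an 11 d library. In Cxcl3 the counts were 0, 0 and 0.144 CPM (4 counts in all) and 2.75, 2.3 and 0.881 CPM. The highest mean of Cxcl1, 11.1 CPM, was at 8 d, while Cxcl2, Cxcl3 and Cxcl5 were called above 14 d at 11 d by 3.15 (SE 0.54), 3.56 (SE 0.64) and 1.81 (SE 0.39). Their receptor gene Cxcr2 overlapped, 10.6 to 15.7 CPM against 9.57 to 17.2 CPM, and was not called.

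Cxcl1, Cxcl2, Cxcl3 and Il6 are shown by promoter because they rose from near 0 and each holds a match to the NF-kB motif. Cxcl5, which also rose, had no match recorded. The motif is here GGGA followed by any 2 bases and then by TTCC. It was searched on both strands from 250 bases before to 50 bases after the first RefSeq start site (GRCm38.p6). The stretches are given 5′ to 3′ on the gene's strand, end before the start site, and have the matches in capitals. They cover chr5:90891154-90891204 (plus strand) for Cxcl1, chr5:90903782-90903832 (plus) for Cxcl2, chr5:90786008-90786058 (plus) for Cxcl3 and chr5:30013050-30013099 (plus) for Il6.
Cxcl1: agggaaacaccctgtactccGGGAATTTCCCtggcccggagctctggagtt
Cxcl2: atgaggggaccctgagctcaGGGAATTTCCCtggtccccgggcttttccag
Cxcl3: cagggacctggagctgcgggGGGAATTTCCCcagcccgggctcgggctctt
Il6: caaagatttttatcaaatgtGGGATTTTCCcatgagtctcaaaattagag
In the first 3 genes the run read as a match on both strands, shifted by 1 base, and began 71, 97 and 73 bases before the start site, and in Il6 it began 44 bases before. Among 12227 tested genes with a RefSeq promoter the motif was held by 1.46%. Among chemokine ligands 4 of 25 did (16%), the fourth being Cxcl10, and among interleukins and TNF family members 3 of 21 (14.3%). Of all 179 tested genes with the motif 25.7% rose and 17.9% fell, and of those without it 19.1% and 17.5%. A match describes letters and not a bound site.

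The lymphocyte and monocyte ligands also rose. Cxcl9, induced by interferon-gamma, stood at 1.96, 1.44 and 1.92 CPM and then 78.7, 52 and 64.5 CPM, Xcl1, made by natural killer cells, at 0.188, 0.148 and 0.144 CPM and then 6, 4.12 and 3.42 CPM, and Cxcl13, which attracts B cells, at 2.49, 3.54 and 1.52 CPM and then 44.6, 19.1 and 24.5 CPM. Ccl6 and Ccl9, ligands of the receptor Ccr1 on myeloid cells, went from 399.5 to 438 CPM to 1365 to 1802 CPM and from 10.9 to 12.2 CPM to 184 to 296 CPM, and both were called above 8 d, by 0.95 (SE 0.20) and 1.28 (SE 0.24). The 3 ligands that fell were Cx3cl1 from 24.1 to 29.8 CPM to 9 to 12.3 CPM, Cxcl12 from 203 to 272 CPM to 117 to 157 CPM, and Ccl21a, a lymphatic chemokine with near-identical copies and an uncertain count, from 45.7 to 59.2 CPM to 19.4 to 27.8 CPM. Of 21 receptors 13 rose (10 without 11 d replicate 1) and 2 fell, 61.9% and 9.52% beside 19.4% and 17.8% of all tested genes. Ccr2, the receptor of Ccl2 and Ccl7, stood at 13.2, 10.9 and 18.3 CPM and then 145, 77 and 101 CPM, a log2 change of 2.93 (SE 0.28, edgeR quasi-likelihood adjusted p = 4.1e-06). The 2 that fell, Ackr2 and Ackr4, encode receptors that remove chemokines without signalling. Ackr2 went from 43.2, 46.7 and 30.1 CPM to 11.7, 17.5 and 18.1 CPM and Ackr4 from 8.1, 10.7 and 15.8 CPM to 3.76, 4.87 and 3.27 CPM, with no overlap in either.

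Most acute-phase and inducible secreted proteins had their highest mean at 11 d, 19 of 25 with and 19 of 25 without 11 d replicate 1. Of the 3194 genes that rose against unirradiated lung 45.7% had their highest mean at 11 d. In the test against unirradiated lung 18 of 25 rose (72%, beside 19.4% of all tested genes) and 0 fell, with a median of 2.32. Saa1 and Saa2, the amyloid genes best known from liver, had no count in any unirradiated library and 127 and 43 counts at 11 d, which was at least 53.5-fold and at least 18.1-fold higher against a floor of 3 counts over the control group. Orm1, an acute-phase glycoprotein, stood at 0.113, 0.406 and 0.542 CPM and then 19.8, 9.84 and 11.6 CPM, a log2 change of 5.25 (SE 0.42, edgeR quasi-likelihood adjusted p = 1.1e-06), and its close relative Orm2 at 0.226, 0.221 and 0 CPM and then 4.78, 2.16 and 2.07 CPM. Serpina3n, a serine protease inhibitor, rose by 2.32 (SE 0.25), with related genes that make its count uncertain, and the complement factor B gene Cfb by 2.41 (SE 0.29). C3, the central complement protein, overlapped, 1201 to 1677 CPM against 1181 to 1619 CPM, with a change of -0.0015 that was not called. Against 8 d 7 of the 25 were called higher at 11 d (Saa3, Orm1, Orm2, Fga, Fgg, Lcn2 and Cfb) and against 14 d 7 (Saa3, Fga, Fgg, Lcn2, Chil1, Itih4 and Hp), beside backgrounds of 1.75% and 0.983%.

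**Figure D2:**
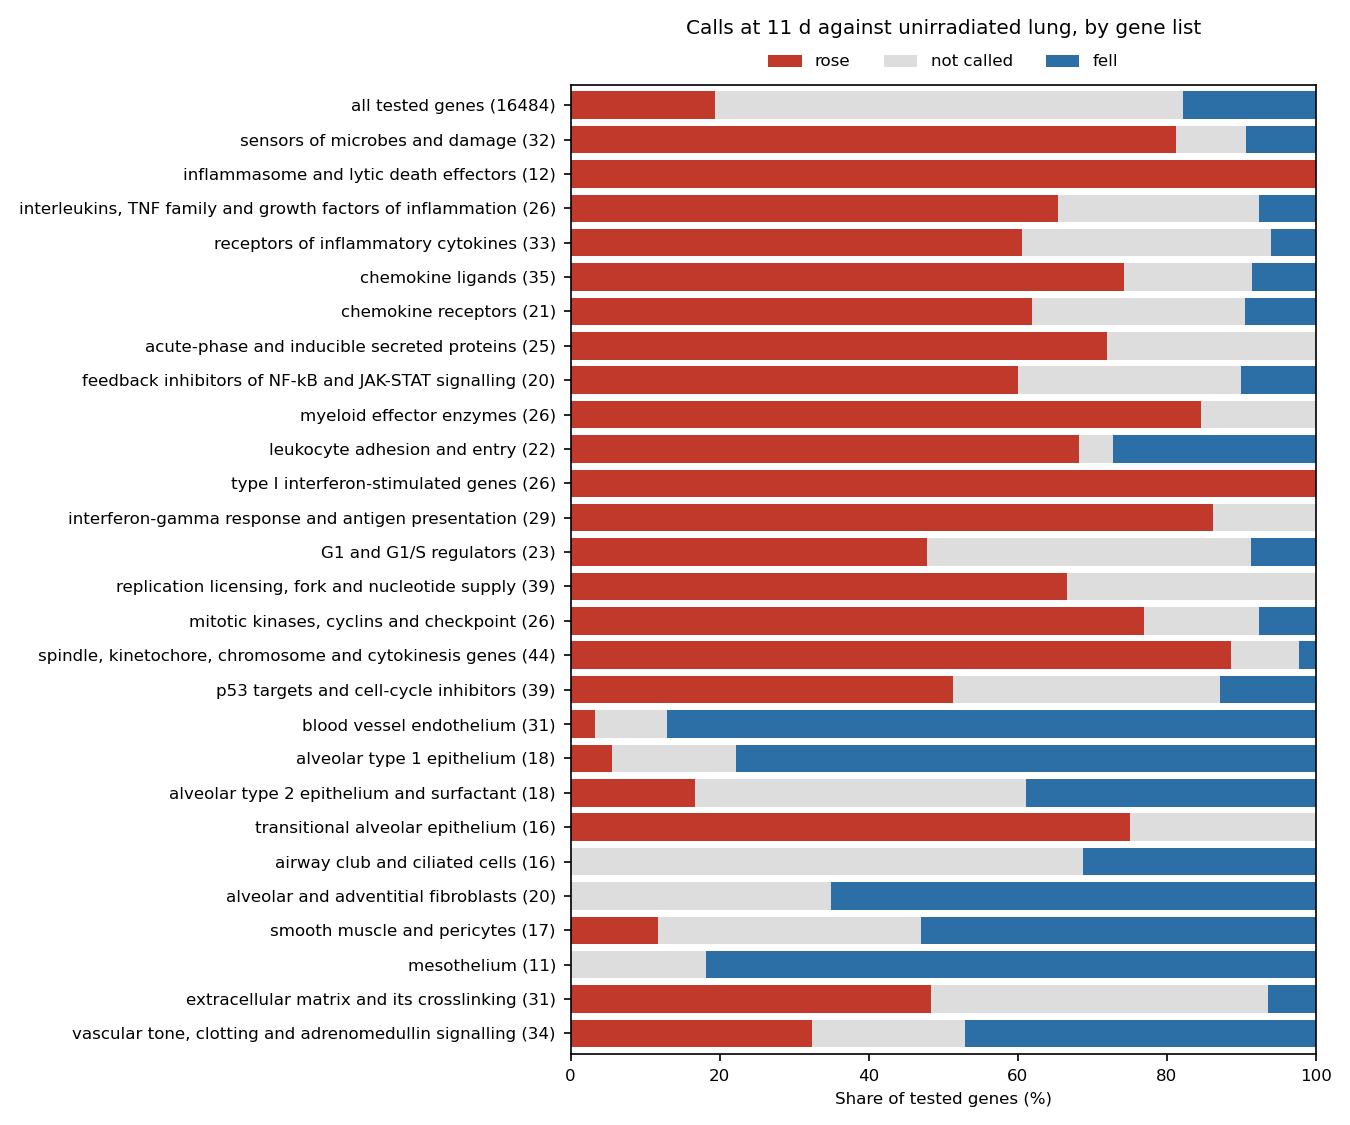
Share of tested genes (%) that rose, fell or were not called at 11 d against unirradiated lung in each of 27 gene lists, with all 16484 tested genes in the top bar and the number tested beside each list's name. Inflammatory, interferon and cell cycle lists lie mostly on the side of rises and endothelial and mesothelial lists on the side of falls, where all genes have 19.4% and 17.8%.

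Some lists and marker sets had 0 calls by the edgeR quasi-likelihood test in one direction, or in both for the fat genes, 18 such counts in all. At an unadjusted p below 0.05, 15 of the 18 were still 0. The exceptions were airway rises (1, and 1 by DESeq2), platelet falls (1, and 0 by DESeq2) and fat falls (2, and 1 by DESeq2). All others were 0 by DESeq2, and limma-voom gave 0 for each.

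Feedback inhibitors of cytokine signalling, which are induced by the pathways they limit, rose in 12 of 20 (60%) and fell in 2 (10%). Of all tested genes 19.4% rose and 17.8% fell. Socs3, an inhibitor of JAK kinases, stood at 9.19, 9.41 and 14.6 CPM and then 52.1, 55.4 and 44.9 CPM, Nfkbie, an inhibitor of NF-kB, at 5.65, 5.46 and 8.28 CPM and then 40.1, 31.2 and 30.4 CPM, and Tnfaip3, the A20 deubiquitinase, at 25.9, 20.7 and 20.2 CPM and then 61.4, 59.9 and 50.9 CPM. The log2 changes were 2.20, 2.39 and 1.36. The early-response phosphatase gene Dusp1 and the stress gene Ier3 fell, by 0.81 (SE 0.22) and 0.98 (SE 0.27). The call of Dusp1 was lost without unirradiated replicate 3 (-0.60) or 11 d replicate 1 (-0.70), and that of Ier3 without 11 d replicate 3 (-0.82). Nfkbia, the main inhibitor of NF-kB, ranged over 34.6 to 99.3 CPM in unirradiated lung and 26.9 to 66 CPM at 11 d and was not called.

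Enzymes of myeloid cells rose in 22 of 26 (84.6%, beside 19.4% of all tested genes) and fell in 0. Above 8 d 11 of 26 were called, where 1.75% of all tested genes were. Mmp12, macrophage elastase, stood at 4.75, 5.79 and 4.23 CPM and then 82, 77.6 and 80.7 CPM, a log2 change of 4.02 (SE 0.25, edgeR quasi-likelihood adjusted p = 2.1e-07). Arg1, the arginase of alternatively activated macrophages, went from 2.71, 3.73 and 3.47 CPM to 73.3, 49.6 and 34.3 CPM, while Nos2, which competes for arginine, rose by 0.81 (SE 0.23), a call that was lost without unirradiated replicate 2 (0.64) or 11 d replicate 1 (0.74). Ctss, a lysosomal protease of antigen-presenting cells, reached 5658, 2476 and 2419 CPM from 563, 577 and 494 CPM, highest in replicate 1, and was below 14 d with a difference of -1.61 (SE 0.29). Lyz2, the macrophage lysozyme gene, stood at 7484, 7955 and 8310 CPM and then 12940, 9489 and 8610 CPM, a change of 0.39 (SE 0.19) that was not called although the libraries were apart. Of 22 genes of leukocyte adhesion 15 rose (68.2%) and 6 fell (27.3%), beside 19.4% and 17.8% of all tested genes. The integrin chain Itgam stood at 20.8, 17.8 and 28.8 CPM and then 339, 212 and 162 CPM and the endothelial selectin gene Selp at 2.98, 2.62 and 3.76 CPM and then 10.9, 13.7 and 10.3 CPM. The 6 that fell, Icam2, Jam2, Pecam1, Jam3, F11r and Cd99l2, encode proteins of endothelial and epithelial junctions, with changes from -1.02 to -0.52. The call of Jam3 was lost without unirradiated replicate 3, 11 d replicate 1 or 11 d replicate 2 (-0.67 to -0.63).

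Type I interferon-stimulated genes rose without exception among those listed. All 26 were called (24 without 11 d replicate 1) and kept the libraries apart, with a median of 1.71, and 23 of 26 had their highest mean at 11 d, or 19 without that replicate. Of all tested genes 19.4% rose and 28.2% kept the libraries apart upwards. Of the 3194 genes that rose 45.7% had their highest mean at 11 d. Mx1, an antiviral GTPase, stood at 1.88, 1.44 and 3.29 CPM in unirradiated lung, 31.3, 21 and 30.8 CPM at 8 d, 53, 33.8 and 32.5 CPM at 11 d and 23.6, 26.1 and 30.3 CPM at 14 d. Irf7, the transcription factor that amplifies interferon production, stood at 10.8, 11.4 and 19.8 CPM, 108, 66.6 and 102 CPM, 243, 131 and 117 CPM and 123, 107 and 99.8 CPM. In both genes every irradiated library lay above the unirradiated ones. The 11 d libraries of Mx1 also lay above those of 8 d and 14 d, by narrow margins, and those of Irf7 overlapped 14 d. Against 14 d 6 of 26 were higher at 11 d (0.983% of all genes were), namely Ifit1, Ifit3, Rsad2, Cmpk2, Ifitm3 and Isg20, with differences from 0.78 to 1.21. Against unirradiated lung the calls of Ifitm3 and Isg20 were lost without unirradiated replicate 1, unirradiated replicate 2, 11 d replicate 1 or 11 d replicate 3 (0.42 to 0.52) and without unirradiated replicate 1, unirradiated replicate 2, 11 d replicate 1 or 11 d replicate 2 (0.39 to 0.47). Against 8 d 0 were called by the edgeR quasi-likelihood test (8 at an unadjusted p below 0.05, 2 by DESeq2, 0 by limma-voom), where the median difference was 0.34. Ifnb1, which encodes interferon beta, did not pass the filter.

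Promoters of these genes are shown because the list rose as a whole and the interferon-stimulated response element, which binds IRF and STAT complexes, has a known core, here GAAA followed by any 2 bases and by a second GAAA on either strand. The stretches lie at chr19:34640765-34640833 (plus strand) for Ifit1, chr19:34583353-34583436 (plus) for Ifit3, chr4:156200855-156200916 (minus) for Isg15, chr8:71537567-71537622 (minus) for Bst2 and chr12:26456543-26456592 (minus) for Rsad2, from the same RefSeq table, with matches in capitals.
Ifit1: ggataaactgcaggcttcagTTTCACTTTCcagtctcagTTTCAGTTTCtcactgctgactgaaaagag
Ifit3: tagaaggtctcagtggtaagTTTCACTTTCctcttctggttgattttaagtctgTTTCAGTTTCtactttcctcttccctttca
Isg15: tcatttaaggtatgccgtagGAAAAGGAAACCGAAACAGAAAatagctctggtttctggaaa
Bst2: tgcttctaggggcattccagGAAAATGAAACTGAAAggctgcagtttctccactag
Rsad2: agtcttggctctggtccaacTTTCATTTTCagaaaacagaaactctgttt
In Isg15 and Bst2 overlapping matches run together, 3 and 2 of them, and in Ifit1 and Ifit3 a pair of matches on the opposite strand stands apart. The first matches began 104 bases before the start site in Ifit1, 156 in Ifit3, 78 in Isg15, 130 in Bst2 and 120 in Rsad2. The motif was found in 10 of the 19 listed genes with a promoter in the table (52.6%), in 8 of 20 interferon-gamma and antigen presentation genes (40%) and in 3.1% of the 12227 tested genes. Within the type I list the genes with the motif had a median log2 change of 2.67 and those without it 1.38, but the medians were 1.10 and 1.14 in the interferon-gamma list and 1.16 and 1.23 in the sensor list. Of the 379 tested genes with the motif 33.8% rose and 10.6% fell, beside 18.8% and 17.8% of those without it. Isg15, a ubiquitin-like protein, stood at 5.69, 3.21 and 5.6 CPM and then 56.6, 36.1 and 23.8 CPM, Ifit1, which binds uncapped viral RNA, at 30.2, 28.8 and 47.5 CPM and then 244, 212 and 169 CPM, and Bst2, a tether of budding virus, at 36.1, 35 and 31.6 CPM and then 95.5, 57.7 and 59.9 CPM.

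Genes of the interferon-gamma response and antigen presentation rose in 25 of 29 (86.2%, beside 19.4% of all tested genes) and fell in 0, with a median of 1.15. Their highest mean was at 14 d in 14 and at 11 d in 13, or at 11 d in 6 without 11 d replicate 1. Among the 3194 genes that rose it was at 14 d in 43.2% and at 11 d in 45.7%, so the list's count at 11 d was near that share. H2-Ab1 and H2-Eb1, chains of MHC class II, stood at 209, 214 and 149.7 CPM and then 944, 676 and 775 CPM, and at 127, 134 and 99.3 CPM and then 577, 434 and 506 CPM. Their log2 changes were 2.06 and 2.08, and that of Ciita, the master regulator of class II genes, was 1.62. Cd274, which encodes the checkpoint ligand PD-L1, stood at 28.9, 27.6 and 33.6 CPM and then 139.8, 111 and 98.5 CPM and was called above 8 d by 0.94 (SE 0.16). The GTPase gene Gbp6 went from 20.7 to 43.8 CPM to 133 to 209 CPM.

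Cell cycle genes rose in each phase, most in mitosis. Of 23 regulators of G1 and the entry into S phase 11 rose and 2 fell (median 0.53), of 39 replication genes 26 rose and 0 fell (0.66), of 26 mitotic kinases, cyclins and checkpoint genes 20 rose and 2 fell (0.998), and of 44 spindle, kinetochore and chromosome genes 39 rose and 1 fell (1.47). Without 11 d replicate 1 the rises numbered 10, 22, 17 and 38. The shares of all tested genes were 19.4% rising and 17.8% falling. Ccne1, cyclin E1, stood at 1.66, 2.4 and 1.59 CPM and then 9.13, 7.73 and 5.65 CPM, a log2 change of 1.996 (SE 0.24, edgeR quasi-likelihood adjusted p = 2.0e-05). Ccnd1, cyclin D1, rose from 102 to 125 CPM to 217 to 261 CPM but had its highest mean, 316 CPM, at 8 d. E2f1 and E2f2, activators of S phase genes, fell, by 0.63 (SE 0.18) and 0.43 (SE 0.14), while the repressors E2f7 and E2f8 rose by 0.91 and 1.48. The call of E2f1 was lost without unirradiated replicate 1 (-0.55) or 11 d replicate 1 (-0.58), and that of E2f2 without unirradiated replicate 1, unirradiated replicate 2 or 11 d replicate 3 (-0.41 to -0.38). In replication, Mcm10, a replication protein, stood at 2.45, 2.18 and 2.96 CPM and then 8.66, 9.42 and 7.98 CPM, and Gins2, a helicase subunit, at 3.81, 3.4 and 4.77 CPM and then 14.2, 11.2 and 10.01 CPM. The helicase core genes Mcm4 and Mcm7 changed by 0.13 and 0.23 and were not called.

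Cdk1, the kinase that starts mitosis, stood at 3.2, 5.09 and 4.48 CPM in unirradiated lung, 9.93, 13.2 and 11.5 CPM at 8 d, 23.7, 17.7 and 15.6 CPM at 11 d and 13.6, 13.4 and 17.3 CPM at 14 d. Its change was a log2 change of 2.16 (SE 0.21, edgeR quasi-likelihood adjusted p = 4.8e-06). The 11 d libraries lay above those of unirradiated lung and of 8 d and overlapped those of 14 d. Top2a, the topoisomerase that untangles sister chromatids, stood at 26, 23.8 and 31.1 CPM, 68.8, 55.9 and 51.3 CPM, 121, 77.9 and 88.9 CPM and 91.3, 72 and 88.7 CPM, a log2 change of 1.83 (SE 0.18, edgeR quasi-likelihood adjusted p = 5.4e-06). Mki67, which coats mitotic chromosomes, stood at 37.6, 34.3 and 44.9 CPM, 84.3, 60.0 and 64.4 CPM, 160.1, 79.3 and 111 CPM and 158, 143 and 135 CPM. Its highest 11 d library was replicate 1, and its mean was higher at 14 d than at 11 d. Ccnb1, cyclin B1, rose by 2.02 (SE 0.23), Plk1, the polo-like kinase of mitosis, by 1.72 (SE 0.27), and Kif2c, a microtubule-depolymerising kinesin, by 1.95 (SE 0.21). Wee1 and Pkmyt1, the kinases that hold Cdk1 inactive, fell by 0.47 (SE 0.15) and 0.56 (SE 0.16), and Stmn1, a microtubule destabiliser, by 0.38 (SE 0.13). These falls depended on single libraries: the call of Wee1 was lost without unirradiated replicate 1, unirradiated replicate 2, 11 d replicate 1 or 11 d replicate 2 (-0.45 to -0.41), that of Pkmyt1 without unirradiated replicate 1 (-0.48) and that of Stmn1 without any 1 of the 6 libraries (-0.42 to -0.30).

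In direct tests between times 4 of the 132 genes of these lists were called above 8 d (Uhrf1, Ube2c, Foxm1 and Tpx2), which is 3.03% beside a background of 1.75%. At an unadjusted p below 0.05 they numbered 55, by DESeq2 19 and by limma-voom 4. Against 14 d 0 were called higher by the edgeR quasi-likelihood test (9 at an unadjusted p below 0.05, 1 by DESeq2, 0 by limma-voom). Top2a missed the call against 8 d, with a difference of 0.71 (SE 0.18) (adjusted p = 0.052), and Cdk1 differed from 14 d by 0.36 (SE 0.20) (adjusted p = 0.39), both from the edgeR quasi-likelihood test. Highest means at 11 d were counted in 7 of 23 G1 regulators and 27 of 39 replication genes. They were counted in 17 of 26 mitotic kinases and cyclins and 27 of 44 spindle genes. The share was 20% over all tested genes and 45.7% over the 3194 genes that rose against unirradiated lung. Without 11 d replicate 1 the list counts were 4, 18, 13 and 16, and that of the 3194 genes was 1208. The spindle count then lay close to the share among the genes that rose.

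**Figure D3:**
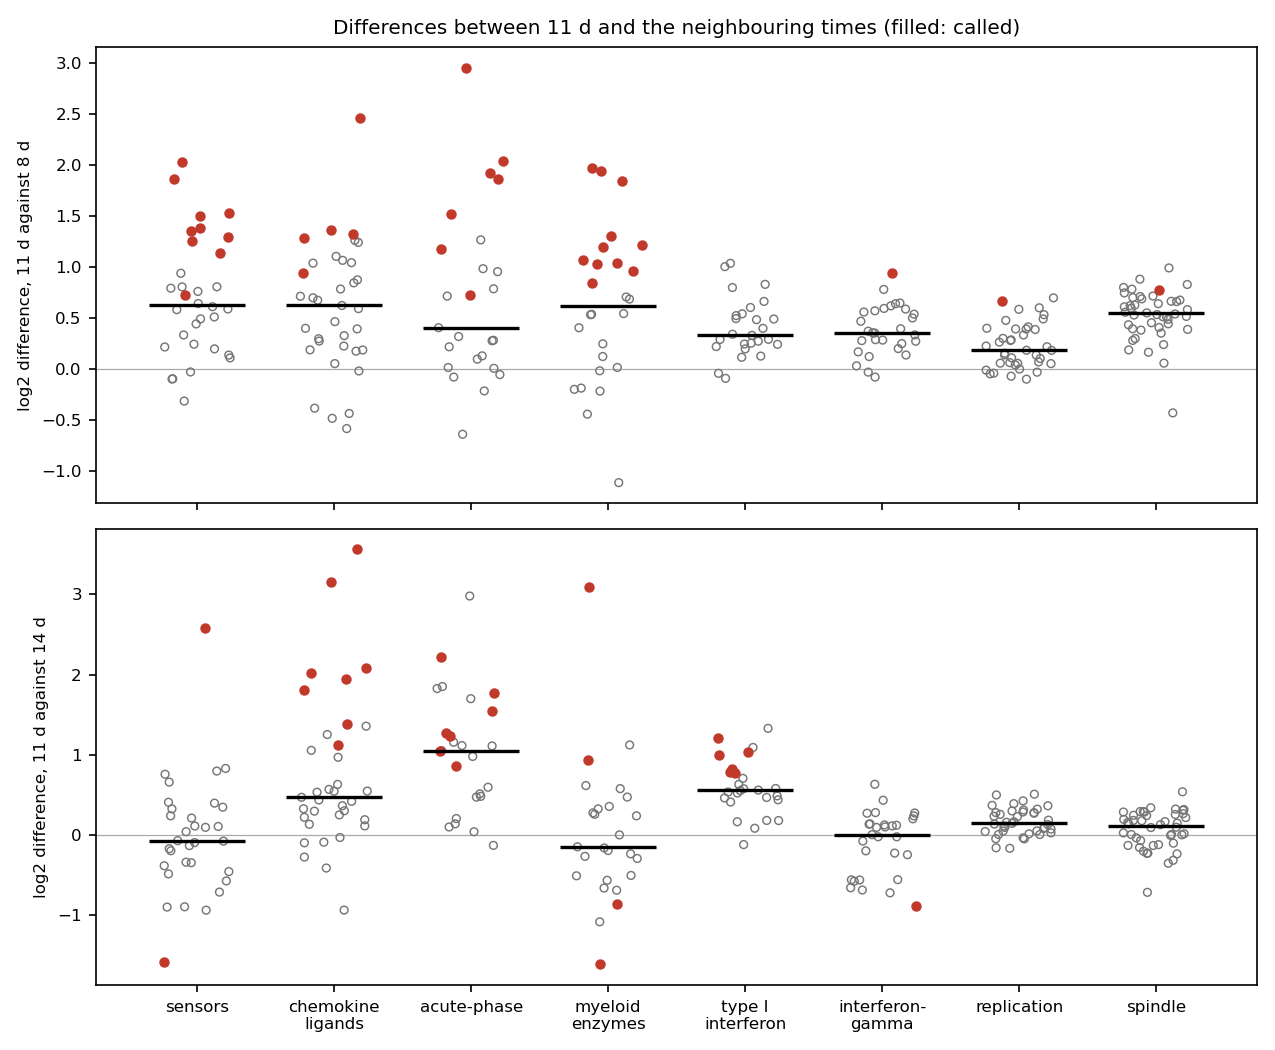
Log2 difference of 11 d against 8 d (upper panel) and against 14 d (lower panel) for each tested member of 8 inflammation, interferon and cell cycle lists; each point is 1 gene, filled where the difference was called, and the short line is the list's median. Acute-phase genes lie highest against 14 d with a median of 1.05, while the spindle genes lie near 0.55 against 8 d and 0.11 against 14 d.

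Promoters of 5 mitotic genes are shown because late cell cycle genes rise together and share short elements, the cell cycle homology region TTTGAA and the NF-Y box CCAAT, searched on both strands. No match of one overlaps a match of the other in the stretches shown. The stretches lie at chr10:69352913-69353132 (minus strand) for Cdk1, chr4:118437344-118437408 (minus) for Cdc20, chr19:37376325-37376380 (plus) for Kif11, chr19:6085068-6085096 (plus) for Cdca5 and chr13:100786537-100786597 (minus) for Ccnb1, and both motifs are in capitals.
Cdk1: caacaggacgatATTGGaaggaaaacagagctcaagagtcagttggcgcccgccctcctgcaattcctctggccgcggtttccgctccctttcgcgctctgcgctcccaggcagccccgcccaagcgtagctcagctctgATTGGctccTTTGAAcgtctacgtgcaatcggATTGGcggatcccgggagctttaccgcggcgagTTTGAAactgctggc
Cdc20: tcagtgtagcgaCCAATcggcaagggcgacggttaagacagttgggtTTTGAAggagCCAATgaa
Kif11: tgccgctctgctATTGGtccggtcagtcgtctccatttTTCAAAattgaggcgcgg
Cdca5: caaggcgggcaaTTTGAAcgTTTGAAgca
Ccnb1: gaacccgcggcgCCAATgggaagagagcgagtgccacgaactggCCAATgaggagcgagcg
Cdk1 held 5 matches, 2 of TTTGAA and 3 of the NF-Y box, Cdc20 held both motifs within 53 bases of the start site, Cdca5 held a pair of TTTGAA and no NF-Y box, and Ccnb1 a pair of NF-Y boxes and no TTTGAA in this window. TTTGAA was present in 27 of 36 spindle and chromosome genes with a promoter in the table (75%), 10 of 19 mitotic kinases and cyclins (52.6%), 4 of 31 replication genes (12.9%) and 12.7% of the 12227 tested genes. For the NF-Y box the shares were 66.7%, 78.9%, 61.3% and 38.1%. Of the 1549 tested genes with TTTGAA 24.7% rose and 14.3% fell, beside 18.4% and 18% of those without it. For the NF-Y box no such difference was seen, with 18.9% rising and 17% falling among genes with it and 19.4% and 17.9% among genes without it. Cdc20, the activator of the anaphase-promoting complex, stood at 2.75, 3.32 and 3.58 CPM and then 6, 5.81 and 5.6 CPM, Kif11, the kinesin that separates spindle poles, at 7.08, 6.53 and 9.97 CPM and then 30.4, 19.7 and 27.7 CPM, and Cdca5, which protects cohesin, at 0.791, 0.812 and 0.542 CPM and then 2.37, 2.58 and 1.71 CPM.

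Targets of p53 and inhibitors of the cell cycle rose in 20 of 39 (51.3%) and fell in 5 (12.8%), with a median of 0.55. Of all tested genes 19.4% rose and 17.8% fell, so the share of falls was below that of all genes. The highest mean was at 8 d in 24 of the 39, and in 11.1% of the 3194 genes that rose against unirradiated lung. Cdkn1a, the p21 inhibitor of cyclin-dependent kinases, stood at 24.7, 29.7 and 19.9 CPM in unirradiated lung, 284, 294 and 282 CPM at 8 d, 171, 193 and 259.9 CPM at 11 d and 156, 169.6 and 143 CPM at 14 d. Its log2 change of 3.07 (SE 0.18, edgeR quasi-likelihood adjusted p = 1.9e-07) came with 4 groups whose libraries did not overlap, highest at 8 d and then at 11 d and 14 d. The difference of 11 d from 8 d, -0.46 (SE 0.17), was not called (edgeR quasi-likelihood adjusted p = 0.18). Mdm2, which degrades p53, stood at 94.6, 93.6 and 104 CPM and then 218, 216 and 234 CPM, a log2 change of 1.19 (SE 0.11, edgeR quasi-likelihood adjusted p = 3.4e-06). Gdf15, a secreted stress factor, rose by 4.96 (SE 0.34), Eda2r, a death receptor, by 3.87 (SE 0.32), Psrc1 by 3.68 (SE 0.16), Phlda3, an inhibitor of Akt, by 2.29 (SE 0.24) and Bax, which opens mitochondria in apoptosis, by 1.54 (SE 0.22). The 5 that fell were the inhibitors Cdkn1c, by 1.22 (SE 0.17), and Cdkn1b, by 0.75 (SE 0.17), and the repair and stress genes Sesn1, Xpc and Rrm2b, by 0.65, 0.51 and 0.49. The call of Sesn1 was lost without unirradiated replicate 1, unirradiated replicate 2 or 11 d replicate 3 (-0.62 to -0.49). Plk2 and Btg2, early p53 targets, were called below 8 d, with differences of -1.002 (SE 0.23) and -0.98 (SE 0.17), and their changes against unirradiated lung, 0.017 and -0.19, were not called. The senescence gene Cdkn2a overlapped, 0.221 to 0.506 CPM and 0.423 to 0.985 CPM, and was not called.

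**Figure D4:**
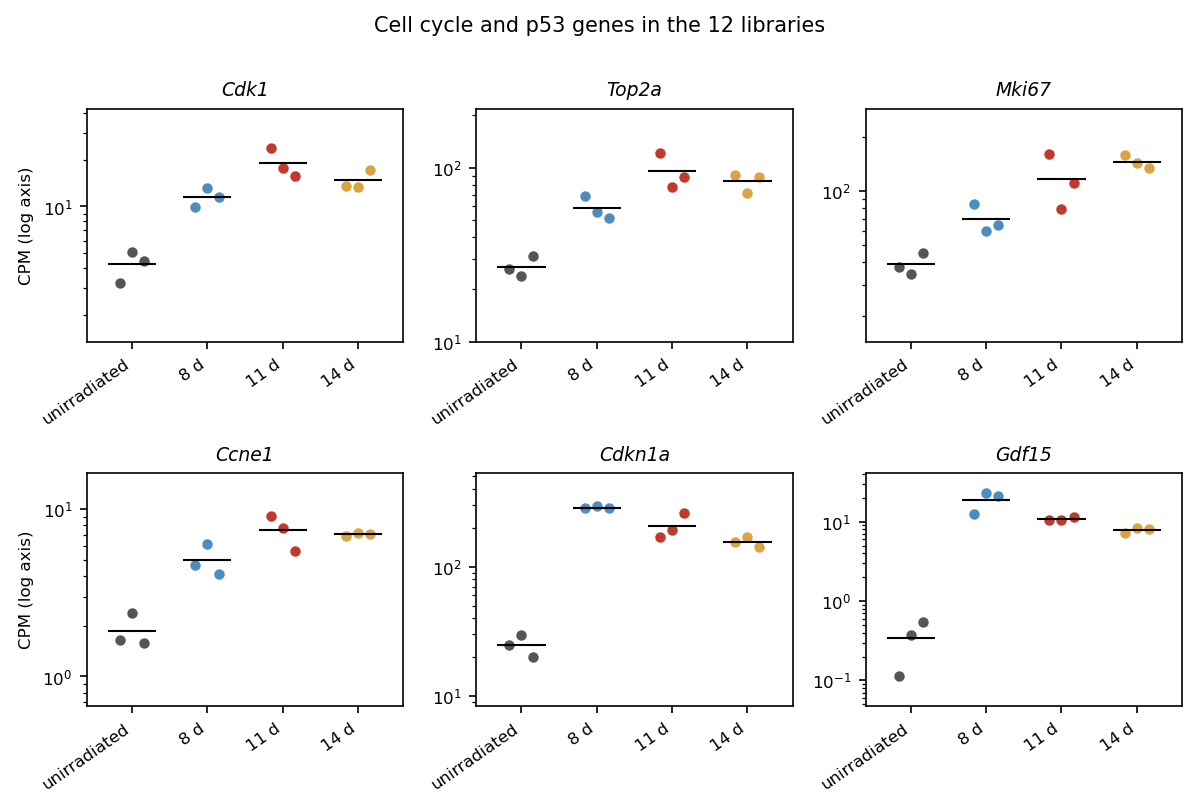
CPM (log axis) of 6 cell cycle and p53 genes in all 12 libraries by group, with points for libraries and a short line for the group mean. The 8 d means of Cdk1, Top2a, Mki67 and Ccne1 lie between those of unirradiated lung and 11 d, whereas the means of Cdkn1a and Gdf15 are highest at 8 d.

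Markers of most leukocyte types rose, and those of resident alveolar macrophages fell. All 16 T cell markers and all 13 markers of natural killer and cytotoxic cells rose. Dendritic cell markers rose in 10 of 12, classical monocyte markers in 7 of 8, interstitial and recruited macrophage markers in 11 of 14, lipid-associated macrophage markers in 9 of 14, mast cell and basophil markers in 6 of 10, neutrophil markers in 5 of 10 and B cell markers in 4 of 11. The T cell, natural killer and B cell sets had 0 falls. Falls were called for 2 dendritic cell markers (Clec9a and Zbtb46) and 1 classical monocyte marker (Chil3). They were also called for 2 interstitial macrophage markers (Cd163 and Lyve1) and 1 lipid-associated macrophage marker (Cd36). Kit and Gata2 in the mast cell set and G0s2 in the neutrophil set fell too. Without 11 d replicate 1 the counts of rises were 16, 13, 10, 7, 11, 9, 5, 2 and 2. Of all tested genes 19.4% rose and 17.8% fell. Without that replicate the counts of neutrophil and B cell markers lay close to this share of rises. The summed level of the 14 interstitial macrophage markers was 1400 to 1770 CPM in unirradiated lung and 2620 to 5280 CPM at 11 d, highest in replicate 1, and that of the 16 T cell markers 72.3 to 83.7 and 269 to 342 CPM. Smaller sets of other cells showed no common direction: 2 of 7 plasma cell markers rose and 1 fell, eosinophil markers 1 and 1 of 5, erythroid precursor markers 1 and 2 of 6, and platelet markers rose in 1 of 8. Markers of immature lymphocytes rose in 3 of 6, of skeletal muscle in 2 of 6, and of heart muscle in 1 of 9 with 1 fall. With 1 library left out at a time the rises were 0 to 2 in plasma cells (0 without 11 d replicate 1), 0 to 1 in platelets (0 without unirradiated replicate 1 or 3 or 11 d replicate 1), 1 to 2 in skeletal muscle (2 only without 11 d replicate 2 or 3) and 0 throughout in heart muscle, and the erythroid falls were 1 without 11 d replicate 1. None of 4 fat genes was called, although Adipoq, Cfd and Plin1 were highest in unirradiated replicate 3. Without unirradiated replicate 1 or 2 the test called Adipoq (-3.52 and -3.49) and Plin1 (-2.78 and -2.86) lower at 11 d. The inflammatory and cell cycle rises above occurred in libraries in which these sums were higher, and their part in those results was not tested.

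Msr1, a scavenger receptor of macrophages, stood at 2.45, 1.7 and 4.12 CPM, 32.9, 41 and 23 CPM, 146, 88.6 and 86.5 CPM and 107, 74.2 and 105 CPM in unirradiated lung and at 8, 11 and 14 d. Gpnmb, a lysosomal glycoprotein, stood at 18.9, 17.9 and 20.6 CPM and then 799.8, 331 and 356 CPM, a log2 change of 4.70 (SE 0.33, edgeR quasi-likelihood adjusted p = 4.5e-07), with replicate 1 far above the others. C1qa, a complement chain made by macrophages, and Apoe, the lipid carrier, were called below 14 d, with differences of -0.96 (SE 0.20) and -2.58 (SE 0.28). Marco, a scavenger receptor, was in contrast called above 14 d by 2.44 (SE 0.38) and stood at 12.4, 25.1 and 56 CPM and then 280.0, 252 and 204 CPM. Of 14 alveolar macrophage markers 9 fell and 3 rose (Marco, Il1rn and Itgax). Among the falls were Flt1 and Car4, which endothelium also expresses and which are on the endothelial list too. Fabp1, a fatty acid-binding protein, went from 17.3, 17.2 and 17.7 CPM to 1.06, 2.58 and 1.97 CPM, a log2 change of -3.22 (SE 0.30, edgeR quasi-likelihood adjusted p = 3.3e-06). Cidec, a lipid droplet protein, fell by 2.66 (SE 0.33), Siglecf, a defining surface lectin, by 1.12 (SE 0.15) and Ear1, one of a family of near-identical ribonucleases with an uncertain count, by 2.48 (SE 0.19).

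Among the T cell markers the receptors of activated cells had the largest changes. Ctla4 stood at 0.226, 0.369 and 0.108 CPM and then 7.35, 4.41 and 4.61 CPM, a log2 change of 4.52 (SE 0.38, edgeR quasi-likelihood adjusted p = 1.5e-06), Pdcd1, the PD-1 gene, at 0.264, 0.184 and 0.0361 CPM and then 5.07, 4.26 and 4.2 CPM, and the costimulatory gene Icos at 0.64, 0.553 and 0.723 CPM and then 10.7, 6.51 and 10.8 CPM. These 3 were called above 8 d by 1.596 (SE 0.30), 1.72 (SE 0.34) and 1.24 (SE 0.29). The T cell receptor chain Cd3e rose from 3.13 to 4.98 CPM to 20.01 to 28 CPM. Of the 10 neutrophil markers tested, Mmp8 rose from 1.81 to 2.96 CPM to 19.8 to 39.9 CPM and Csf3r, a growth factor receptor, from 9.72 to 14 CPM to 17.4 to 39.5 CPM, while Cxcr2 overlapped and Camp and Ngp did not pass the filter. The 5 rises of neutrophil markers became 2 without unirradiated replicate 1 or 2 and 3 without 11 d replicate 2, and the 4 rises of B cell markers became 2 without unirradiated replicate 1 or 2. Jchain, a plasma cell gene, stood at 7.91, 6.16 and 6.65 CPM and then 70.0, 15.1 and 26.5 CPM, highest in replicate 1, and its call was lost without 11 d replicate 1 (1.59). Cpa3, a mast cell protease, stood at 0.339, 0.332 and 0.94 CPM and then 13.7, 8.95 and 5.7 CPM, while Kit and Gata2, which other lung cells also express, fell by 2.27 (SE 0.15) and 1.68 (SE 0.26).

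Endothelial genes fell. Of 31 tested markers of blood vessel endothelium 27 fell against a background of 17.8% and 1 rose, with a median of -1.21. Tek, the angiopoietin receptor, stood at 543, 498 and 513 CPM in unirradiated lung, 126, 154 and 146 CPM at 8 d, 87.5, 138 and 114 CPM at 11 d and 45.8, 59.6 and 54 CPM at 14 d. Its log2 change of -2.19 (SE 0.17, edgeR quasi-likelihood adjusted p = 7.5e-07) was accompanied by a level above 14 d of 1.09 (SE 0.16), and 11 of the 31 genes were called above 14 d, where 0.983% of all genes were. Ednrb, an endothelin receptor of capillaries, stood at 90.4, 85.6 and 98.2 CPM and then 11.1, 24.9 and 17.2 CPM, Tmem100 at 319, 405 and 345 CPM and then 48.6, 101 and 78.8 CPM and Fendrr, a long non-coding RNA, at 81.2, 67.5 and 34.6 CPM and then 6.17, 17.6 and 9.54 CPM. In each of these 3 genes 11 d replicate 1 was the lowest of the 3. The pan-endothelial genes Cdh5 and Pecam1 fell by less, 1.19 (SE 0.16) and 0.70 (SE 0.15), and Emcn, endomucin, changed by -0.24 (SE 0.20), which was not called. Apln, a peptide of angiogenic tip cells, was the one that rose, from 28.4, 25.7 and 33.9 CPM to 54.5, 57.6 and 73.2 CPM, while its receptor gene Aplnr fell by 2.06 (SE 0.27).

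Genes that set vascular tone and clotting split by direction, 11 of 34 rising (32.4%) and 16 falling (47.1%). Of all tested genes 19.4% rose and 17.8% fell. Among the falls were Ramp2, the partner of the adrenomedullin receptor, which fell by 1.98 (SE 0.22), Npr3, the natriuretic peptide clearance receptor, by 2.09 (SE 0.26), Agtr1a, an angiotensin receptor, by 2.004 (SE 0.21), and both chains of soluble guanylate cyclase, Gucy1a3 and Gucy1b3, by 1.31 and 1.14. Thbd, thrombomodulin, the endothelial anticoagulant, went from 490.4, 534 and 332 CPM to 89.9, 139 and 144 CPM. In the other direction F10, coagulation factor X, also made by monocytes and macrophages, went from 19.4, 18.4 and 16 CPM to 216, 125 and 86.4 CPM, a log2 change of 2.99 (SE 0.37, edgeR quasi-likelihood adjusted p = 3.0e-05). Plau, the urokinase plasminogen activator, rose by 2.81 (SE 0.23), and Procr, the endothelial protein C receptor, by 2.35 (SE 0.19). Adm, adrenomedullin, which dilates vessels, rose by 1.35 (SE 0.35), and its receptor chain Calcrl fell by 1.48 (SE 0.14).

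**Figure D5:**
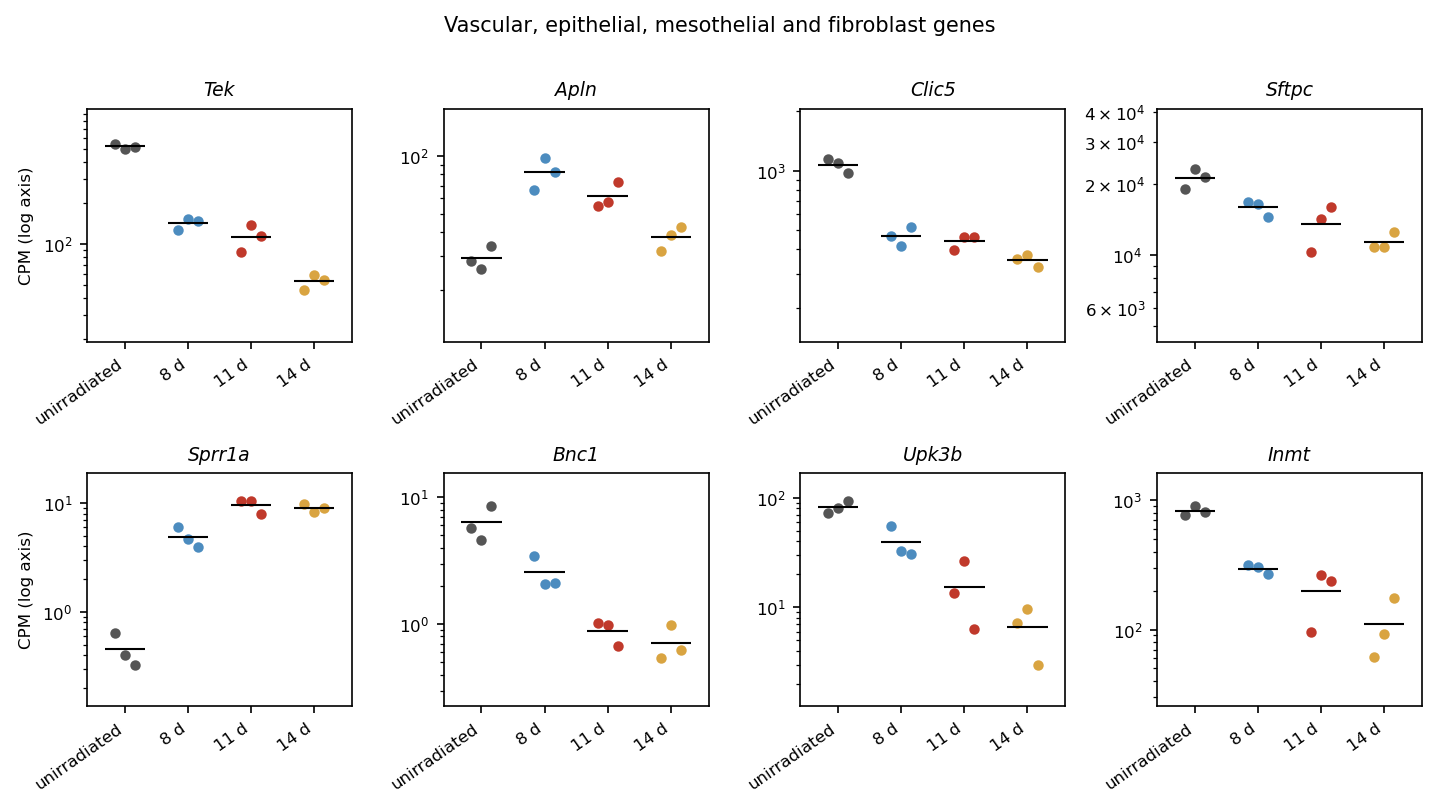
CPM (log axis) of 8 vascular, epithelial, mesothelial and fibroblast genes in all 12 libraries by group, with points for libraries and a short line for the group mean. Tek, Clic5, Bnc1 and Inmt lie below unirradiated lung in every 11 d library, while Sprr1a and Apln lie above.

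Alveolar type 1 genes fell, while the falls of type 2 genes depended on single libraries. Of all tested genes 17.8% fell and 19.4% rose. Of 18 type 1 genes 14 fell and 1 rose, Pdpn, by 0.46 (SE 0.12). Clic5, a chloride channel protein, stood at 1145, 1095 and 973 CPM and then 393, 461 and 459 CPM, a log2 change of -1.29 (SE 0.13, edgeR quasi-likelihood adjusted p = 7.5e-06). Ager, the receptor for glycation products that marks type 1 cells, went from 3504, 3857 and 3397 CPM to 1851, 2699 and 2487 CPM, Hopx fell by 0.94 (SE 0.15) and Vegfa, the vascular growth factor that type 1 cells supply, by 1.12 (SE 0.18). Of 18 type 2 and surfactant genes 7 fell (38.9%) and 3 rose (16.7%), so the share of rises was near that of all genes. The falls were 2 without 11 d replicate 1, 4 without 11 d replicate 3, and 3 and 4 without unirradiated replicates 1 and 2. Sftpc, surfactant protein C, stood at 19000, 23000 and 21330 CPM and then 10300, 14210 and 15930 CPM, a log2 change of -0.65 (SE 0.20, edgeR quasi-likelihood adjusted p = 0.019). Its lowest 11 d library was replicate 1, and its call was lost without unirradiated replicate 2 (-0.58) or 11 d replicate 1 (-0.49). The call of Ager was lost without 11 d replicate 1 (-0.47). Slc34a2, a phosphate transporter, fell by 0.84 (SE 0.19), Scd1, a fatty acid desaturase, rose by 1.53 (SE 0.22) and Sftpd, a surfactant protein that binds microbes, by 0.51 (SE 0.14), the last call being lost without unirradiated replicate 1 (0.45). Lamp3, a lamellar body protein, overlapped at 854 to 876 CPM against 662 to 858 CPM.

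Genes of the transitional state between type 2 and type 1 cells rose in 12 of 16 (75%, beside 19.4% of all tested genes) and fell in 0. Sprr1a, a cornified envelope protein, stood at 0.64, 0.406 and 0.325 CPM, 6.04, 4.68 and 3.92 CPM, 10.5, 10.4 and 7.98 CPM and 9.89, 8.34 and 9.02 CPM in the 4 groups in order of time, and was called above 8 d by 0.98 (SE 0.21). Sfn, a 14-3-3 protein that p53 induces, went from 9.31, 11.6 and 9.58 CPM to 37.1, 45.6 and 44.8 CPM, a log2 change of 2.06 (SE 0.20, edgeR quasi-likelihood adjusted p = 3.9e-06). Krt8 and Krt18, the paired keratins of simple epithelium, rose by 0.55 (SE 0.16) and 0.69 (SE 0.16), the call of Krt8 being lost without unirradiated replicate 1 (0.47) or 11 d replicate 2 (0.51). Lgals3, which is also on the lipid-associated macrophage list, rose by 2.24 (SE 0.20). Of 16 airway genes 5 fell (31.2%, beside 17.8% of all tested genes) and 0 rose, and 1 rose without 11 d replicate 1 or unirradiated replicate 3. Scgb1a1, the club cell secretoglobin, stood at 13300, 24670 and 18620 CPM and then 5074, 9097 and 8544 CPM, and Cbr2, a carbonyl reductase, at 3633, 5552 and 4215 CPM and then 777, 1551 and 1657 CPM. The ciliated cell gene Foxj1 stayed at 28.1 to 38.7 CPM against 34.7 to 46.1 CPM. The secretory gene Bpifa1 stood at 0.113, 0.369 and 102 CPM in unirradiated lung and 19.1, 11.6 and 13.9 CPM at 11 d. It was high in unirradiated replicate 3 alone and was not called, but without that library the test called it higher at 11 d, by 5.92 (edgeR quasi-likelihood adjusted p = 0.034).

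Fibroblast, pericyte and mesothelial genes fell more often than all tested genes, of which 17.8% fell and 19.4% rose. Of 20 fibroblast genes 13 fell and 0 rose, and without 11 d replicate 1 the falls were 7. Inmt, a methyltransferase, stood at 771, 903 and 814 CPM and then 96.5, 263 and 239 CPM, with replicate 1 lowest. Npnt, nephronectin, a basement membrane protein, went from 539.6, 462 and 503 CPM to 167, 207 and 215 CPM, and Pdgfra, the receptor that marks the lineage, overlapped at 114 to 165 CPM against 146 to 189 CPM. Of 17 smooth muscle and pericyte genes 9 fell (6 without 11 d replicate 1), among them Pdgfrb by 1.09 (SE 0.11), and Rgs5 and Hhip rose by 1.99 and 0.65, the call of Hhip being lost without 11 d replicate 3 (0.48). All 11 mesothelial genes had their highest mean in unirradiated lung and 9 fell, with a median of -1.80. Bnc1, a transcription factor of mesothelium, went from 5.76, 4.61 and 8.6 CPM to 1.01, 0.984 and 0.674 CPM, a log2 change of -2.81 (SE 0.33, edgeR quasi-likelihood adjusted p = 1.9e-05), and Upk3b, a uroplakin, from 72.7, 80.8 and 92.7 CPM to 13.5, 26.5 and 6.33 CPM. Igfbp5, which binds insulin-like growth factors and which other stromal cells also express, fell by 2.47 (SE 0.33). In Upk3b 11 d replicate 3 was the lowest, unlike in the endothelial genes.

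Of 31 matrix genes 15 rose (48.4%) and 2 fell (6.45%), or 12 and 0 without 11 d replicate 1. Of all tested genes 19.4% rose and 17.8% fell, so the share of falls was below that of all genes. The highest mean was at 8 d or 14 d in 26 of the 31. Among the 3194 genes that rose against unirradiated lung it was at 8 d in 11.1% and at 14 d in 43.2%. Spp1, osteopontin, stood at 44.8, 103 and 54 CPM and then 1974, 1002 and 1224 CPM, and is also on the macrophage list. Timp1 stood at 6.52, 4.95 and 5.89 CPM and then 75.5, 70.5 and 75.3 CPM, and Tnc, tenascin C, a protein of wound matrix, at 8.1, 5.54 and 8.64 CPM and then 64.5, 51.9 and 46.1 CPM. Has2, the hyaluronan synthase, rose by 2.17 (SE 0.33) and Lox, which crosslinks collagen and elastin, by 1.42 (SE 0.17). The fibrillar collagens Col1a1 and Col3a1 rose by 1.13 (SE 0.24) and 1.02 (SE 0.26). Postn, periostin, and Col12a1 fell, by 0.71 (SE 0.21) and 0.71 (SE 0.26), and both calls were lost, that of Postn without unirradiated replicate 1, 11 d replicate 1 or 11 d replicate 2 (-0.68 to -0.64) and that of Col12a1 without unirradiated replicate 1, unirradiated replicate 2, 11 d replicate 1, 11 d replicate 2 or 11 d replicate 3 (-0.77 to -0.45).

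Among the 15 largest rises and 15 largest falls of genes that averaged 5 CPM or more, some belong to no list above. Rgs1, a regulator of chemokine receptor signalling in lymphocytes and macrophages, stood at 1.88, 1.25 and 1.3 CPM and then 55.3, 46.1 and 36.6 CPM, a log2 change of 4.96 (SE 0.32, edgeR quasi-likelihood adjusted p = 3.0e-07). Ptafr, the receptor for platelet-activating factor, stood at 0.829, 0.517 and 0.795 CPM and then 26.9, 14.2 and 13.8 CPM. Ankrd63 had the largest fall, from 11.6, 12.7 and 10.8 CPM to 0.338, 1.41 and 1.5 CPM, a log2 change of -3.45 (SE 0.37, edgeR quasi-likelihood adjusted p = 8.9e-06). Cdh16, a cadherin, went from 16.4, 13.7 and 12.7 CPM to 1.35, 2.58 and 1.45 CPM, Glp1r, the incretin receptor, from 54.3, 48.9 and 77.3 CPM to 8.24, 12.7 and 11.9 CPM and Adcy8, an adenylate cyclase, from 37.3, 27.1 and 34.8 CPM to 4.35, 8.81 and 5.18 CPM. Fmo1, a drug-metabolising monooxygenase, stood at 518, 601 and 505 CPM and then 67.5, 121 and 116 CPM. In all of these the 3 and 3 libraries were apart, as the naming rule requires. Pcdhac2, Chst4 and Tril fell by 2.61, 2.54 and 2.45.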

How the data were processed

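RNA of mouse lung tissue was extracted with Trizol and made into libraries with the NEBNext Ultra II Directional kit, per the labels' protocols. The deposited values were raw counts per gene symbol from the authors, and TopHat and mm10 are named in the submitters' processing notes, while no counter, annotation or strand mode is given in the sources used here. Each table held 23282 lines, and 79 lines sharing 35 symbols were summed, leaving 23238. Groups came from the sample labels, 3 libraries in each of 4 groups.

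Counts were filtered with filterByExpr and scaled by TMM, and the edgeR 4.0.16 quasi-likelihood test (R 4.3.3) was run on 1 fit of all 12 libraries, with 8 residual degrees of freedom, Benjamini-Hochberg adjustment over 16484 genes and a threshold of 0.05. The standard error of a log2 change is its size divided by the square root of F. The fit was tested on simulated data. Alternatives were other scalings and filters, the replicate block, DESeq2 1.42.0, limma-voom (limma 3.58.1), a fit of the groups compared and leaving out each library. Gene positions came from GENCODE M21 (15794 tested symbols found) and promoters from RefSeq (12227 found).

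The members, gene lists and tests were chosen with earlier results of these data known. The naming rule took the 15 largest rises and 15 largest falls among called genes of at least 5 CPM without overlap, up to 10 genes above or below both other times, 3 genes of lowest p per list, called genes against each list's majority and a fixed set of regulators, cytokines and markers, and left out immunoglobulin, T cell receptor, haemoglobin and predicted genes. Some genes of these lists are not reported here. Other genes given with values were chosen after their values were seen. Depth, 19624554 to 27765751 counts per library, limits the precision of genes with few counts.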

Additional observations from a re-analysis of the deposited data

Results flagged for a closer look

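In some of the genes described above the change against unirradiated lung differed between 11 d and another time by direct test, which is what marked them for a closer look. Groups of 3 libraries were not examined for single outlying samples. All values are log2 differences called by the edgeR quasi-likelihood test with Benjamini-Hochberg adjustment, and the contrasts share the 11 d libraries. As stated above, nearly all of these calls were lost without 8 d replicate 3 or 14 d replicate 1, with Gpnmb against 8 d and Apoe, Clec4e and Irg1 against 14 d as the exceptions.

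The 9 genes above both times differed from 8 d and from 14 d as follows: Saa3 by 2.04 and 2.21, Irg1 by 1.94 and 3.09, Clec4e by 2.03 and 2.58, Ccl3 by 1.33 and 1.38, Tnf by 1.29 and 1.67, Il1rn by 1.23 and 1.18, Lcn2 by 0.72 and 1.05, Fga by 1.93 and 1.54 and Fgg by 1.52 and 1.77. Apoe, C1qa, Ctss and Tlr8 lay between the times, above 8 d by 1.30, 1.68, 1.84 and 1.35 and with differences from 14 d of -2.58, -0.96, -1.61 and -1.59.

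Other myeloid and sensor genes were called above 8 d and were not called against 14 d: Arg1 by 1.97, Msr1 by 1.73, Gpnmb by 2.83, Spp1 by 2.46, Lgals3 by 1.21, Mmp12 by 1.22, Mmp8 by 1.31, Itgam by 1.49, F10 by 1.95, Ptafr by 1.59, Clec4d by 1.87, Clec7a by 1.499, Cd14 by 0.72, Tlr2 by 1.30, Tlr7 by 1.14 and Naip2 by 1.04. Among chemokine, cytokine and lymphocyte genes the differences were 0.95 for Ccl6, 1.28 for Ccl9, 2.46 for Cxcl13, 0.94 for Cd274, 1.16 for Il12b, 1.05 for Il2ra, 1.12 for Il7r, 1.596 for Ctla4, 1.72 for Pdcd1, 1.24 for Icos and 1.19 for Rgs1. Acute-phase, division and epithelial genes above 8 d were Orm1 by 1.87, Orm2 by 2.96, Cfb by 1.18, Foxm1 by 1.10, Tpx2 by 0.78, Ube2c by 0.76, Uhrf1 by 0.66 and Sprr1a by 0.98. Below 8 d lay Bnc1, Btg2, Dusp1 and Plk2, with differences of -1.502, -0.98, -0.97 and -1.002.

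Against 14 d the neutrophil and monocyte chemokines differed by 1.95 for Ccl2, 2.08 for Ccl7, 3.15 for Cxcl2, 3.56 for Cxcl3, 1.81 for Cxcl5 and 1.12 for Cxcl10. Interferon-stimulated genes differed by 1.04 for Ifit1, 0.99 for Ifit3, 1.21 for Rsad2, 0.82 for Cmpk2, 0.78 for Ifitm3 and 0.78 for Isg20. Secreted and macrophage genes differed by 1.24 for Chil1, 1.27 for Itih4, 0.85 for Hp, 0.98 for Il33, 2.44 for Marco, 2.54 for Fabp1, -0.85 for Lyz2 and -1.15 for Naip5, of which the last belongs to a family of near-identical genes. Genes of vessels and of the alveolar surface that were below unirradiated lung were still above 14 d, Tek by 1.09, Tmem100 by 1.45, Ramp2 by 1.08, Calcrl by 0.81, Icam2 by 1.05, Pecam1 by 0.76 and Hopx by 0.63, as were Cdh16 by 1.22, Fmo1 by 1.06 and Glp1r by 1.25.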

How the results depend on the processing

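Against unirradiated lung the counts of rises, falls and all calls stayed within 1.5 times of 3194, 2938 and 6132 under every alternative run, from 2445 rises and 1981 falls without 11 d replicate 1 to 3633 and 3335 in a fit of the 2 groups alone. Of the values of named genes under alternatives, 3627 kept direction and call, 66 in 24 genes lost the call, 10 in 3 genes gained it (Hp, Adipoq and Plin1) and 14 in 4 uncalled genes changed sign, of which Bpifa1 was called at its new sign without unirradiated replicate 3 (5.92). Those 4 were Bpifa1 (2.13 with the replicate block, 3.03 by limma-voom, -1.78 to 5.92 with 1 library left out), C3 (5.95e-05 with 10 counts required in every sample of a group, 0.00942 in the fit of the 2 groups, -0.117 to 0.127 with 1 library left out), Cxcr2 (0.00118 by limma-voom, -0.242 to 0.139 with 1 library left out) and Plk2 (-0.0239 with library size alone, -0.171 to 0.344 with 1 library left out). In the direction of most calls the counts of the 27 lists moved by over 1.5 times in 6 of 405 cases, the type 2 and fibroblast falls given above and airway falls, 8 in the fit of the 2 groups. In the other direction, mostly counts of 0 to 3, they did so in 32 of 405 cases, and those of the 18 marker sets in 46 of 540.

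The contrasts between times depended most on the choices. Above 8 d the test called 288 genes, and 186 with library size alone, 606 by DESeq2, 118 in the fit of those groups and 2 to 355 with 1 library left out. Below 8 d it called 65, and 121, 250, 25 and 0 to 190 in the same order. In either direction the 353 became 856 by DESeq2, 143 in the fit of those groups and 2 to 545 with 1 library left out. Above 14 d the 162 became 439 by DESeq2 and 6 to 321 with 1 library left out, below 14 d the 134 became 212 with the replicate block, 372 by DESeq2 and 7 to 360 with 1 library left out, and in either direction the 296 became 811 by DESeq2 and 13 to 681 with 1 library left out. The 9 genes above both times became 23 by DESeq2 and 0 to 15 with 1 library left out. The cause was not tested.

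With the replicate number as a block the test called 3120 rises and 2801 falls against unirradiated lung. Same-numbered 11 d and unirradiated libraries did not deviate together (correlations of -0.00127 to 0.0503), but 3 correlations cannot exclude a pairing. Same-numbered unirradiated and 8 d libraries had correlations of 0.0895 to 0.168. Over all groups the range was -0.353 to 0.287 for the same number and -0.436 to 0.462 for different numbers. The alternative without Rn45s and haemoglobin genes was chosen after the data were seen and moved no count by over 1.5 times. In simulated counts for 11 d against unirradiated lung (16326 genes run), 67, 67 and 66 genes were changed by 1.5-fold, 2-fold and 4-fold and no others. The test recovered 7.46%, 65.7% and 92.4% of them, so small changes were often missed in that setting. It made 116 calls there and 6132 in the data. Adjustment is stricter where fewer genes change, so the share missed in the data cannot be read from this simulation.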
